A study of Mus musculus with 4 samples.

Results

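Hepatocytes that sit near the central vein and hepatocytes that sit near the portal vein were set against each other in the regenerating liver, at 72 h after partial hepatectomy (PHx), an operation in which liver lobes are cut away. The nuclei came from the PHx 72 h library of single-cell ATAC-seq, an assay that counts the cuts a transposase makes in open chromatin. A nucleus entered when it held at least 3000 counts in peaks. Its pericentral counts were those in peaks over 5 genes (Cyp2e1, Cyp1a2, Cyp2a5, Glul and Slc1a2), and its periportal counts were those over 6 genes (Cyp2f2, Hal, Gls2, Hsd17b6, Sds and Amdhd1), each gene taken with the 2000 bp upstream of it. The nuclei were thus chosen by their measured counts in these 11 genes. Nuclei with at least 4 such counts were kept and called pericentral when the pericentral share was at least 0.6, and periportal when it was at most 0.2. Of 5700 barcodes in the library, 3073 had at least 3000 counts and 2167 were kept. Among these, 655 were pericentral (30.2%, exact 95% binomial interval 28.3 to 32.2%), 703 were periportal (32.4%, 30.5 to 34.5%) and 809 lay between. The 1358 pericentral and periportal nuclei were drawn from 20217 barcodes in the whole series.

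The series held 1 library of hepatocytes from mouse liver at each of 0, 48, 72 and 96 h after surgery. The 0 h library was undamaged liver. All mice were on a normal diet and 10 to 12 weeks old per the labels, and the study's methods name adult male C57BL/6J mice and hepatocytes freed by collagenase perfusion. How many mice went into the 72 h and 96 h libraries is not stated in these sources. With 1 library at each time no difference could be tested against animals, so levels and ratios are given with intervals that cover counting error only.

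The liver lobule is laid out along the flow of blood, which enters at the portal vein with oxygen and nutrients and leaves at the central vein. Hepatocytes divide their work along this path, a pattern called zonation. Urea synthesis, gluconeogenesis and much of the secretion of plasma proteins lean to the portal side. Glutamine synthesis, bile acid synthesis and cytochrome P450 metabolism lean to the central side, where Wnt ligands from endothelial cells of the central vein maintain the pericentral program through beta-catenin.

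The pericentral nuclei were the deeper ones. Their median was 8317 counts against 7280 in intermediate and 6024 in periportal nuclei, and they held a median of 8, 8 and 6 counts in the rule genes. Of all entries above 0 in the pericentral nuclei, 88.0% were even numbers, since both ends of a fragment usually fall in the same peak, so 4 counts may be 2 fragments. The calls were therefore thinly supported. In the pericentral class 8.24% of nuclei had counts in a single rule gene and 64.0% in at least 3, and in the periportal class the values were 5.55% and 59.9%. Cyp2e1 had counts in 72.7% of pericentral nuclei and gave 43.0% of their pericentral counts, and Hal had counts in 83.5% of periportal nuclei. The pericentral share was exactly 0 in 559 nuclei and exactly 1 in 218. Just inside the pericentral threshold, from 0.60 to 0.647, lay 85 nuclei, and just outside it, from 0.550 to 0.579, lay 42. The periportal threshold had 91 nuclei just inside and 120 just outside. The share of counts in peaks within 1000 bp of a transcription start site was 49.3% in pericentral, 49.0% in intermediate and 48.7% in periportal nuclei. Of the 1358 nuclei, 23 carried a barcode that also occurs in another library, where 681 to 882 barcodes were shared between any pair of libraries.

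Both classes held counts over hepatocyte genes. The summed level over 10 hepatocyte genes was 3574 CPM (counts per 1000000, scaled to the summed counts of the class in peaks outside the rule genes) in pericentral, 4067 in intermediate and 4420 in periportal nuclei. Albumin (Alb) was at 601, 669 and 722 CPM and the lineage factor Hnf4a at 416, 422 and 415. Over 12 endothelial markers the sums were 557, 539 and 541 CPM, over 13 markers of Kupffer and immune cells 213, 206 and 196, over 11 stellate and mesenchymal markers 282, 282 and 285, and over 9 cholangiocyte markers 244, 260 and 268. Only 6, 3, 3 and 3 members of these lists had enough counts to be tested, and none of those differed by 1.5-fold. Of all genes tested only 0.815% and 0.609% did in the 2 directions, so none passing among so few says little. Cd5l, Vsig4, C1qa, Cd79a and Des had no count in either class. Within them Cd68 was higher in pericentral nuclei (75.3 against 57.9 CPM) and Sox9 lower (30.4 against 41.9), with intervals that left out equal levels. In a further reading the 5% of nuclei with the largest share of their counts in these lists were left out. Then 78 of the 84 pericentral and 60 of the 68 periportal genes below that could still be tested stayed past 1.5-fold. All kept the same direction.

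The rule genes chose the nuclei, so their levels in the 2 classes are a description. Cyp2e1, a P450 of ethanol and drug oxidation, was at 368 CPM in pericentral, 125 in intermediate and 15.9 in periportal nuclei. Glul, the glutamine synthetase, was at 275, 125 and 18.6. Hal, which starts the breakdown of histidine, was at 81.0, 275 and 591, and Gls2, the liver glutaminase, at 59.5, 159.8 and 223.9.

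A measure that the rule did not fix was had by leaving each rule gene out of the rule in turn and measuring it in the nuclei that the other genes chose. All 5 pericentral rule genes were then higher in pericentral nuclei. Cyp2e1 was at 247 against 86.5 CPM, a log2 ratio of 1.52 (95% interval 1.29 to 1.75), in 351 pericentral and 832 periportal nuclei. Glul was at 182 against 89.1 CPM (log2 ratio 1.03, 0.80 to 1.26) and Slc1a2, a glutamate transporter, at 115.4 against 84.4 (0.45, 0.20 to 0.70). Cyp1a2 and Cyp2a5, P450 enzymes with few counts, gave 0.69 (0.06 to 1.33) and 1.43 (0.31 to 2.69). All 6 periportal rule genes were lower in pericentral nuclei, and for 5 of them the interval left out equal levels. Sds, which turns serine into pyruvate, was at 16 against 45.3 CPM (-1.5, -2.02 to -1.0), and Gls2 at 100.1 against 154.9 (-0.63, -0.86 to -0.40). Hal and its neighbour Amdhd1, which acts later in histidine breakdown, share a peak and were left out together, and gave -1.24 (-1.44 to -1.04) and -1.03 (-1.24 to -0.82). Cyp2f2 gave -0.65 (-1.05 to -0.26). Hsd17b6, with 84 and 89 counts in all, gave -0.44 with an interval from -1.09 to 0.20 that held equal levels. The contrast of each was smaller than in the classes it had helped to choose, and 4 of the 6 periportal rule genes lie on chromosome 10.

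Next, zonation genes outside the rule were read, in lists chosen with earlier results of these data known. Of 40 such pericentral genes, 33 had at least 300 counts in the 2 classes together. Of the 33, 30 were higher in pericentral nuclei and 3 lower, where 46.9% of all genes tested were lower. Their median log2 ratio was 0.36, against 0.02 over all 11655 genes tested, and 6 were at least 1.5-fold higher, where 0.815% of all genes tested were. Summed over the list, accessibility was 5909 CPM (5822 to 5996) in pericentral, 4883 in intermediate and 4375 CPM (4292 to 4459) in periportal nuclei, a log2 ratio of 0.43 (0.40 to 0.47). Of 34 periportal genes outside the rule, 28 were tested and 24 of these were lower in pericentral nuclei, against 46.9% of all genes tested. Their median log2 ratio was -0.40, and 7 were at least 1.5-fold higher in periportal nuclei, where 0.609% of all genes tested were. Their sum was 5793 CPM (5707 to 5880) in pericentral, 6894 in intermediate and 7871 CPM (7760 to 7984) in periportal nuclei (log2 ratio -0.44, -0.47 to -0.41). Neither list crossed the fold in the other direction in any tested member.

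**Figure D1:**
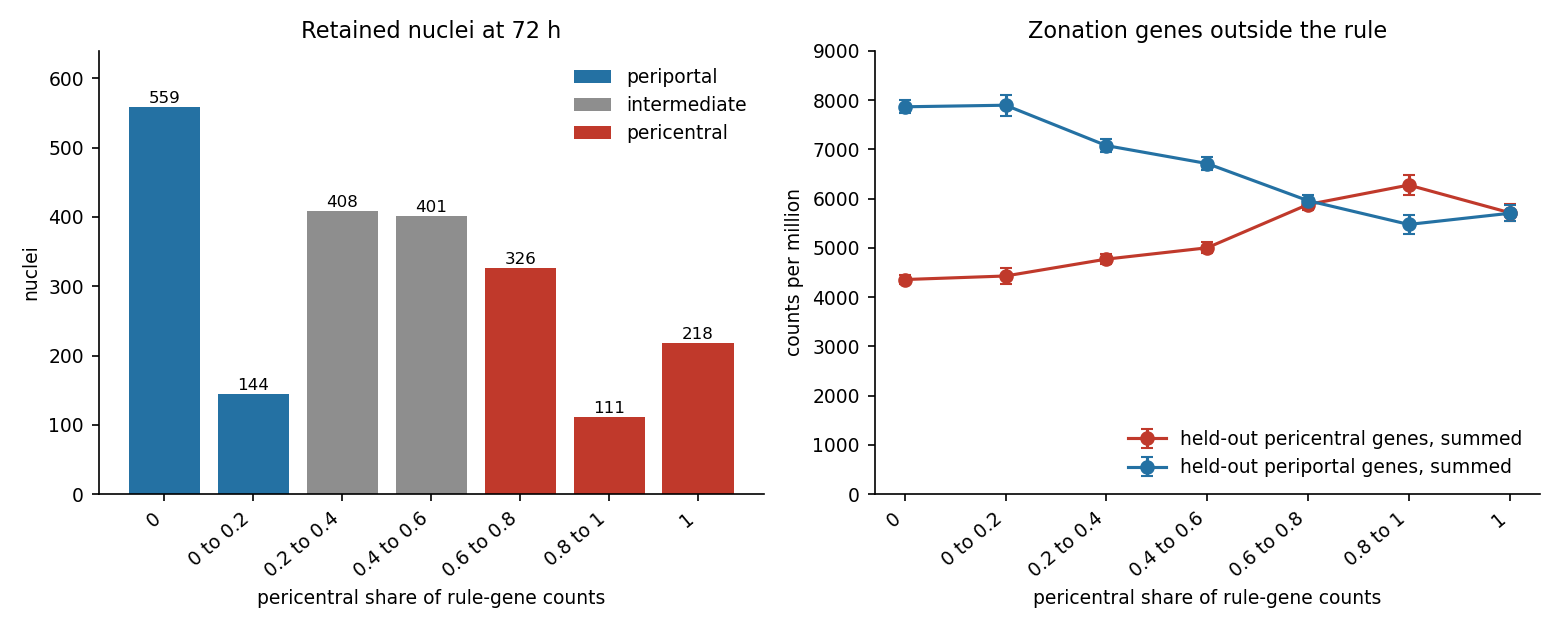
Left, number of retained PHx 72 h nuclei (vertical axis) in each range of the pericentral share of rule-gene counts (horizontal axis), with periportal nuclei in blue, intermediate in grey and pericentral in red. Right, summed level in CPM of pericentral genes (red) and periportal genes (blue) outside the rule over the same ranges, with exact 95% Poisson intervals; the pericentral sum goes from 4355 CPM at a share of 0 to 6273 CPM at a share of 0.8 to below 1, and the periportal sum from 7862 to 5474 CPM.

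The summed levels were then read over ranges of the pericentral share. From a pericentral share of 0 upward the summed pericentral genes were at 4355, 4427, 4770, 5000, 5878 and 6273 CPM and, in nuclei with a share of exactly 1, at 5713 CPM. The periportal genes were at 7862, 7894, 7074, 6710, 5957, 5474 and 5700 CPM over the same ranges. Nuclei with a share of exactly 1 were shallower (median 6990 counts) than those at 0.8 to below 1 (9814 counts), and they lay slightly nearer to the middle in both lists. With so few counts behind each share, nuclei can be placed in a neighbouring range, so steps over the ranges cannot tell a graded level from a mixture of 2 kinds of nuclei. The plot of nuclei and summed genes by pericentral share shows both series.

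**Figure D2:**
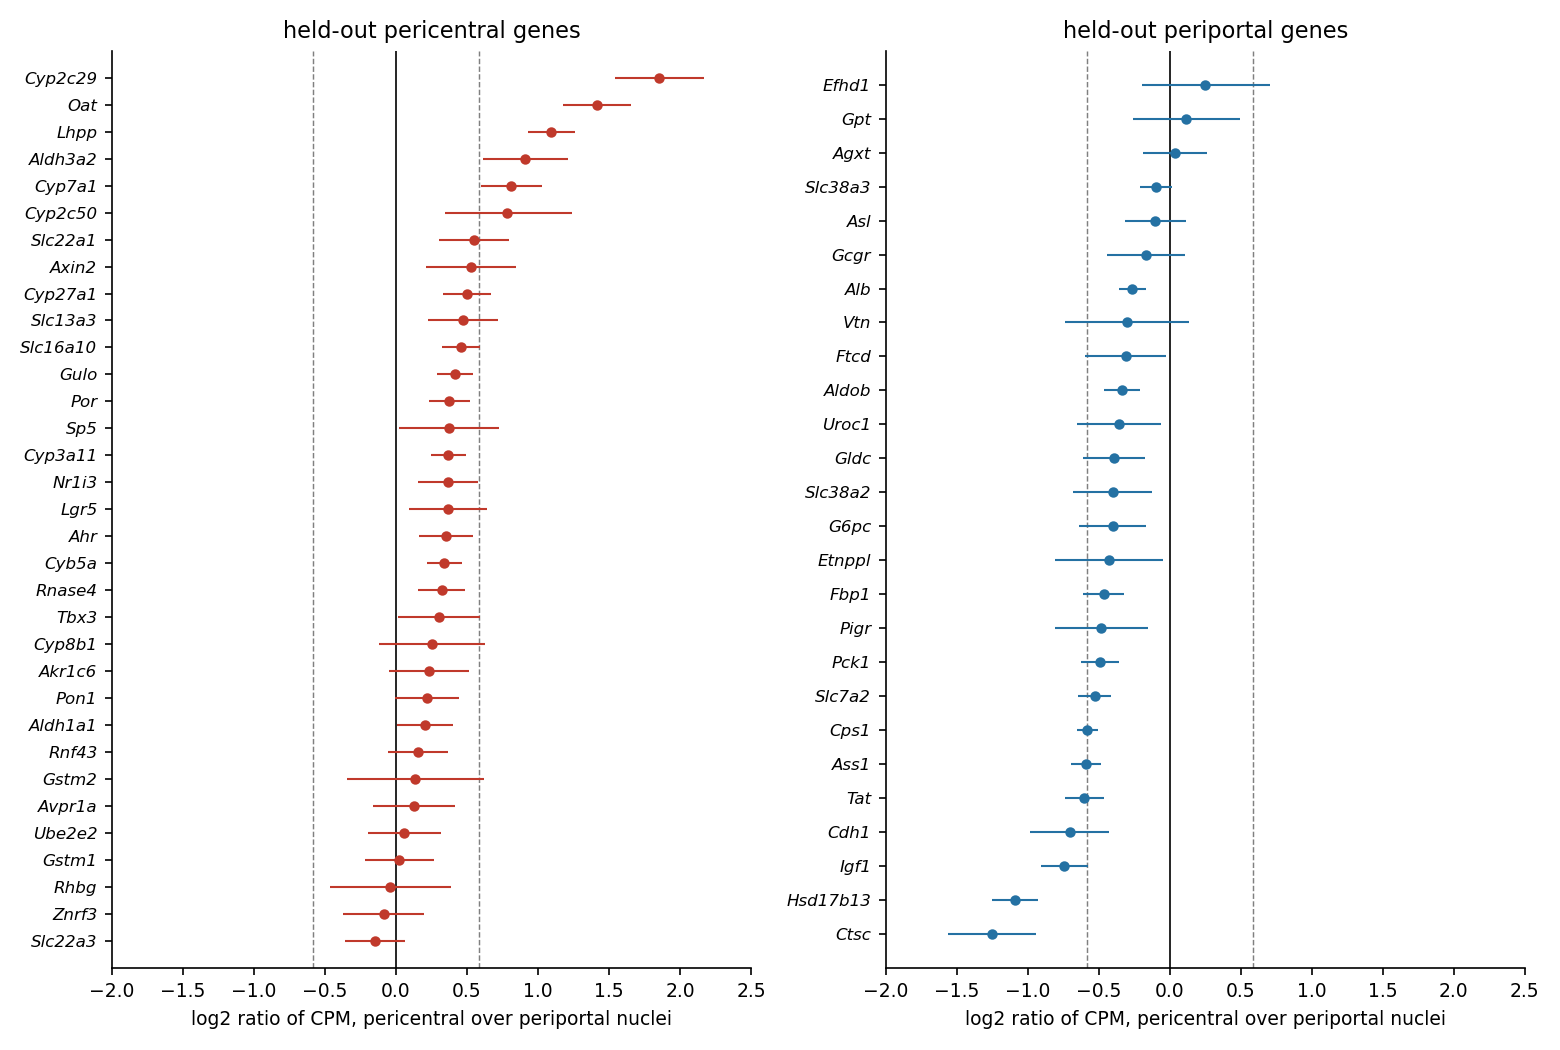
Log2 ratio of CPM, pericentral over periportal nuclei (horizontal axis), for tested pericentral genes (left, red) and periportal genes (right, blue) outside the rule at 72 h; points are the ratio, bars the 95% counting interval, and dashed lines mark 1.5-fold. Cyp2c29 at 1.85 and Ctsc at -1.25 lie farthest from equal levels.

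Among the named genes tested, all of them outside the rule, a P450 gene had the largest ratio. Cyp2c29 (chr19:39269405-39330713, build GRCm38/mm10) was at 155 CPM (142 to 170) in pericentral, 88.0 in intermediate and 43.1 CPM (35.2 to 52.2) in periportal nuclei. Its log2 ratio was 1.85 (1.54 to 2.17). Its levels in the 2 classes were well apart, and the intermediate nuclei lay between. Of 34 genes of xenobiotic metabolism 21 were tested and 3 were past 1.5-fold, all higher in pericentral nuclei (0.815% of all genes tested), with a median log2 ratio of 0.29. The other 2 were Gsta3, a glutathione transferase, at 272 against 157 CPM (0.79, 0.61 to 0.97), and Cyp2c50 at 45.1 against 26.2 CPM (0.78, 0.34 to 1.24). Over 14 other settings of the processing the lowest ratio was 1.14 for Cyp2c29, 0.38 for Gsta3 and 0.18 for Cyp2c50. The last 2 values fall short of 1.5-fold. At the low end of the list Cyp2j5 was at 135 against 158 CPM (-0.23, -0.43 to -0.02) and Nr1i2, the pregnane X receptor, at 142 against 152 (-0.10, -0.30 to 0.11). Sult2a8, a sulfotransferase of bile acids and steroids, was at 102 CPM (91.2 to 115) against 51.7 CPM (43.1 to 61.6), and Aldh3a2, an aldehyde dehydrogenase of fatty aldehydes, at 106 against 56.5 CPM (0.91, 0.62 to 1.21).

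Genes of the urea cycle and glutamine handling were mostly lower in pericentral nuclei, 12 of 14 tested against 46.9% of all genes, with a summed log2 ratio of -0.28 (-0.32 to -0.25), and Oat stood apart. Oat, the ornithine aminotransferase that feeds ornithine to glutamate (chr7:132557478-132576398), was at 207 CPM (191 to 224) in pericentral, 123 in intermediate and 77.7 CPM (67.0 to 89.6) in periportal nuclei (log2 ratio 1.42, 1.18 to 1.66). The neighbouring Lhpp, a phosphohistidine phosphatase, was at 369, 231 and 173 CPM (1.09, 0.93 to 1.26). The annotated span of Fgfr2 covers both, so every count of Oat and of Lhpp is also counted there. On the periportal side Ass1, which makes argininosuccinate, was at 454, 578 and 683 CPM (-0.59, -0.70 to -0.49). Cps1, which fixes ammonia into carbamoyl phosphate, was at 922, 1200.2 and 1378 CPM (-0.58, -0.65 to -0.51), just short of the fold. Of the 17 genes of urea cycle and glutamine handling 14 were tested, 1 was past 1.5-fold higher in pericentral and 2 in periportal nuclei (0.815% and 0.609% of all genes tested), and the median log2 ratio was -0.16. Glud1, the glutamate dehydrogenase, was nearly level at 477 against 439 CPM (0.12, 0.00 to 0.24). The arginine transporter Slc7a2 was at 388 against 560 CPM (-0.53, -0.64 to -0.42).

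Other leading periportal genes had no single role. Ctsc, the lysosomal protease cathepsin C (chr7:88278085-88310888), was at 44.4 CPM (37.2 to 52.7) in pericentral, 70.5 in intermediate and 106 CPM (93.0 to 119) in periportal nuclei (-1.25, -1.56 to -0.94). Hsd17b13, a protein of lipid droplets (chr5:103955440-103977410), was at 161, 262 and 343 CPM (-1.09, -1.25 to -0.93). Igf1, the growth factor that the liver secretes into blood, was at 175, 229 and 292 CPM (-0.74, -0.91 to -0.58). Cdh1, the epithelial cadherin, was at 63.0 against 103 CPM (-0.71, -0.99 to -0.43). Among those with fewer counts, Cit, a kinase of cytokinesis, was at 23.5, 38.9 and 49.3 CPM (-1.07, -1.51 to -0.63), Clic3, a chloride channel protein whose counts are all shared with Paxx, at 34.2 against 69.7 (-1.03, -1.39 to -0.66), and Fam198a at 33.7 against 62.3 (-0.88, -1.26 to -0.51). Aspg, an asparaginase, was at 183 against 292 CPM (-0.67, -0.84 to -0.51). Gm10800, a predicted gene in a stretch of repeats where reads are hard to place, was at 154 against 244 CPM and is listed only because the ranking gave it.

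Among glucose genes 8 of 18 had intervals below equal levels in pericentral nuclei and 1 above, where 5.83% and 7.20% of all genes tested had them. All 18 genes of gluconeogenesis and glycolysis were tested, 2 were past 1.5-fold, both higher in periportal nuclei (0.609% of all genes tested), and the median log2 ratio was -0.12. The 2 were Ppargc1a, a coactivator of gluconeogenic genes, at 73.0, 102 and 114 CPM (-0.65, -0.91 to -0.39), and Tat, the tyrosine aminotransferase, at 259, 319 and 393 CPM (-0.60, -0.74 to -0.46). Pck1, which makes phosphoenolpyruvate, gave -0.49 (-0.63 to -0.36), Fbp1 -0.47 (-0.61 to -0.32) and G6pc, which releases free glucose, -0.40 (-0.64 to -0.17).

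Among 18 bile acid genes, all tested, 3 were past 1.5-fold and all 3 were higher in pericentral nuclei (0.815% of all genes tested), while the median was 0.07. Cyp7a1, the rate-limiting enzyme of bile acid synthesis, was at 190 CPM (175 to 206) against 108 CPM (95.7 to 122), with intermediate nuclei at 139 (0.81, 0.60 to 1.03). Slco1b2, an uptake transporter, was at 337 against 192 CPM (0.81, 0.65 to 0.97), and Abcc2, a canalicular export pump, at 494 against 324 CPM (0.61, 0.48 to 0.73). Over 14 other settings of the processing the lowest ratios of the 3 were 0.54, 0.50 and 0.39, each short of 1.5-fold but in the same direction. At the other end were Slco1a1 at 32.2 against 41.0 CPM (-0.35, -0.77 to 0.07) and Cyp7b1, of the alternative pathway, at 76.3 against 95 CPM (-0.32, -0.59 to -0.05).

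Fatty acid oxidation also held 3 genes past 1.5-fold among 11 tested of 17, all higher in pericentral nuclei (0.815% of all genes tested), with a median of 0.23. Pdk4, a kinase that shuts off pyruvate oxidation, was at 139, 107 and 72.4 CPM (0.94, 0.69 to 1.21). Acaa1b, a thiolase of peroxisomes, was at 386, 230 and 213 CPM (0.86, 0.71 to 1.01). A neighbour counted in the same peaks appears with it, since 89.6% of the counts of Dlec1 (303 against 157 CPM) are shared with Acaa1b. In the same way 84.7% of the counts of Dgcr6 (92.9 against 53.4 CPM) are shared with Prodh, which encodes proline dehydrogenase. Ppara, the nuclear receptor of fatty acid oxidation, was at 333, 289 and 261 CPM (0.35, 0.21 to 0.50). Acadl, at 40.8 against 50.9 CPM, and Cpt2, at 33.2 against 37.5, had intervals that held equal levels.

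None of the 19 lipid synthesis genes was past the fold, and their summed ratio was 0.01 (-0.02 to 0.04). Within the list Mlxipl, the carbohydrate response factor, was at 180 against 139 CPM (0.38, 0.18 to 0.58), and Acly, which makes acetyl-CoA from citrate, at 182 against 243 CPM (-0.42, -0.59 to -0.25). For secreted proteins 24 of 26 were tested and 1 was past the fold on the periportal side (0.609% of all genes tested), Fga, a fibrinogen chain, at 85.3, 116 and 141 CPM (-0.72, -0.96 to -0.48). Its partner chains Fgb and Fgg gave -0.48 (-0.66 to -0.31) and -0.31 (-0.50 to -0.13), and Apoa2 was the highest member at 0.44 (0.21 to 0.68).

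Of 22 targets and parts of the Wnt pathway 19 were tested, none was past 1.5-fold and the median was 0.03. The intervals of 5 lay above and of 3 below equal levels, against 7.20% and 5.83% of all genes tested. Summed over the list, the log2 ratio was -0.01 (-0.06 to 0.05). Its highest members were Axin2, Sp5 and Lgr5. Axin2, the feedback inhibitor, was at 79.0 CPM in pericentral, 64.0 in intermediate and 54.8 in periportal nuclei (0.53, 0.21 to 0.84), Sp5 at 59.0, 49.8 and 45.6 (0.37, 0.02 to 0.73), and Lgr5, the R-spondin receptor, at 94.7, 84.9 and 73.6 (0.36, 0.09 to 0.64). The lowest were the DNA-binding partners Lef1, at 33.6 against 47.4 CPM (-0.50, -0.90 to -0.10), and Tcf7l1, at 188 against 245 CPM (-0.39, -0.55 to -0.22). Among 22 hepatocyte transcription factors none was past the fold, with Cebpb (0.39, 0.19 to 0.59) and Nr1i3, the constitutive androstane receptor (0.36, 0.15 to 0.58), highest and Xbp1 (-0.28, -0.66 to 0.10) and Cebpa (-0.25, -0.49 to -0.01) lowest.

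Few genes of any kind passed the fold, so none passing in a short list says little of that list. Of 23 cell cycle genes 14 were tested and none was past the fold, and the interval of each held equal levels. Mki67 was highest at 35.2 against 26.4 CPM (0.42, -0.04 to 0.89) and Cdkn1a, the inhibitor p21, lowest at 38.6 against 49.3 CPM (-0.35, -0.73 to 0.03). The summed ratio of the list was 0.08 (-0.01 to 0.16). Of 21 genes of fetal state and progenitors 12 were tested and none was past the fold. Igf2 was at 45.9 against 32.8 CPM (0.49, 0.08 to 0.90), Yap1 at 118 against 149 CPM (-0.33, -0.55 to -0.12) and Sox9 at 30.4 against 41.9 CPM (-0.46, -0.89 to -0.04).

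**Figure D3:**
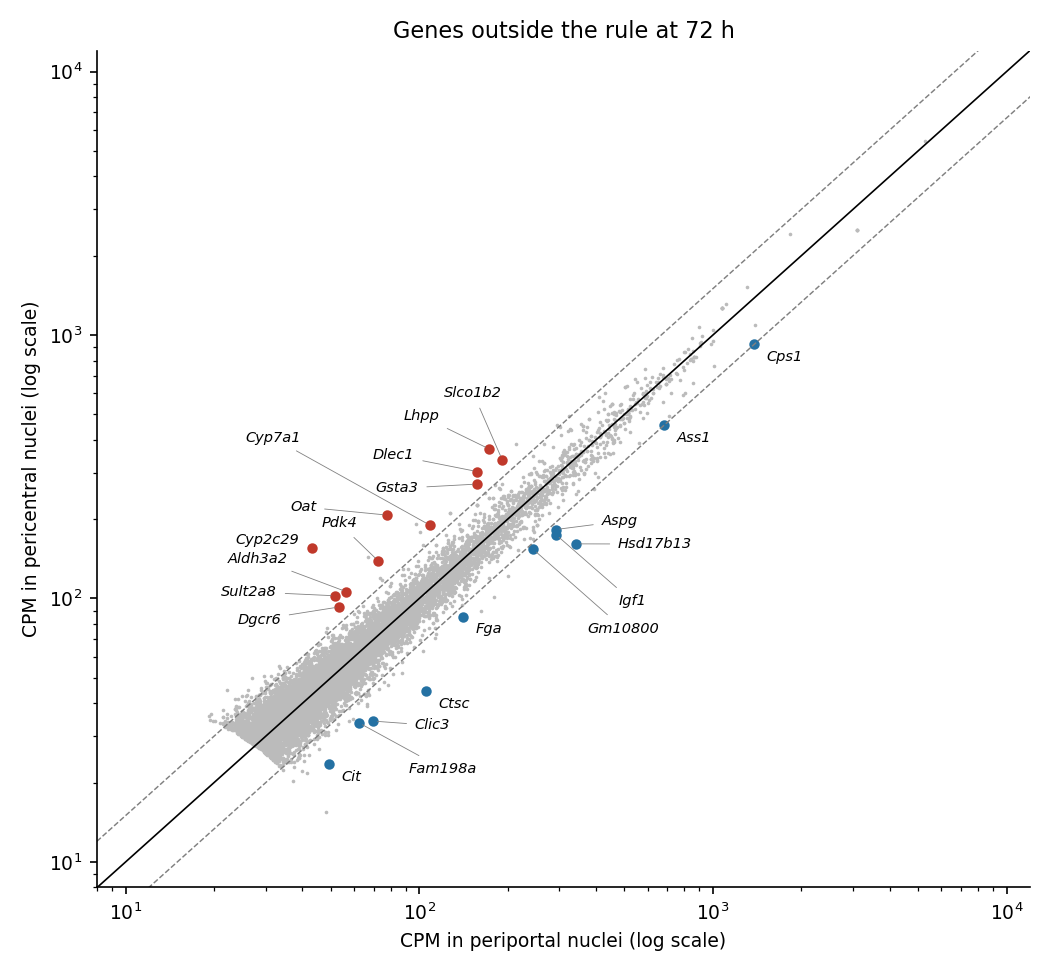
CPM in pericentral (vertical axis) against periportal nuclei (horizontal axis), both on log scales, for the 11655 genes tested at 72 h; each point is a gene, the solid line marks equal levels, dashed lines mark 1.5-fold, and genes that the ranking named are coloured and labelled. Most genes lie within the dashed lines, where Cps1 also falls, just short of 1.5-fold.

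Over all 11655 genes tested, 95 were at least 1.5-fold higher in pericentral nuclei and 71 in periportal nuclei, and the SD of the log2 ratios was 0.22. A rule without Cyp2e1 and Hal gave 48 and 39 genes, and 14 of the 42 pericentral and 18 of the 38 periportal genes that could still be tested stayed past the fold. Of the 95 and 71 genes, 76 and 50 were protein-coding. The level in intermediate nuclei, which the comparison did not use, lay between the classes for 92 of the 95 and 70 of the 71, against 40.9% of the other 11489 genes. A wide gap leaves more room between 2 levels, so these counts are not independent of the size of the ratio. Of 118 tested genes within 500 kb of a rule gene, 2 passed the fold on the pericentral side and 1 on the periportal side. Over all genes tested 0.815% and 0.609% did. On the pericentral side these were Phrf1 at 35.6 against 21.4 CPM and Rdh9, a retinol dehydrogenase, at 33.7 against 21.4 CPM. On the periportal side it was Pamr1 at 23.9 against 36.7 CPM. All 3 are protein-coding. Phrf1 is nearest to Cyp2e1, Rdh9 to the periportal rule gene Hsd17b6 and Pamr1 to the pericentral rule gene Slc1a2. Summed over whole chromosomes the log2 ratio ranged from -0.09 on chromosome 10 to 0.10 on chromosome 19. The plot of all genes in both classes shows how few stand away from equal levels.

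**Figure D4:**
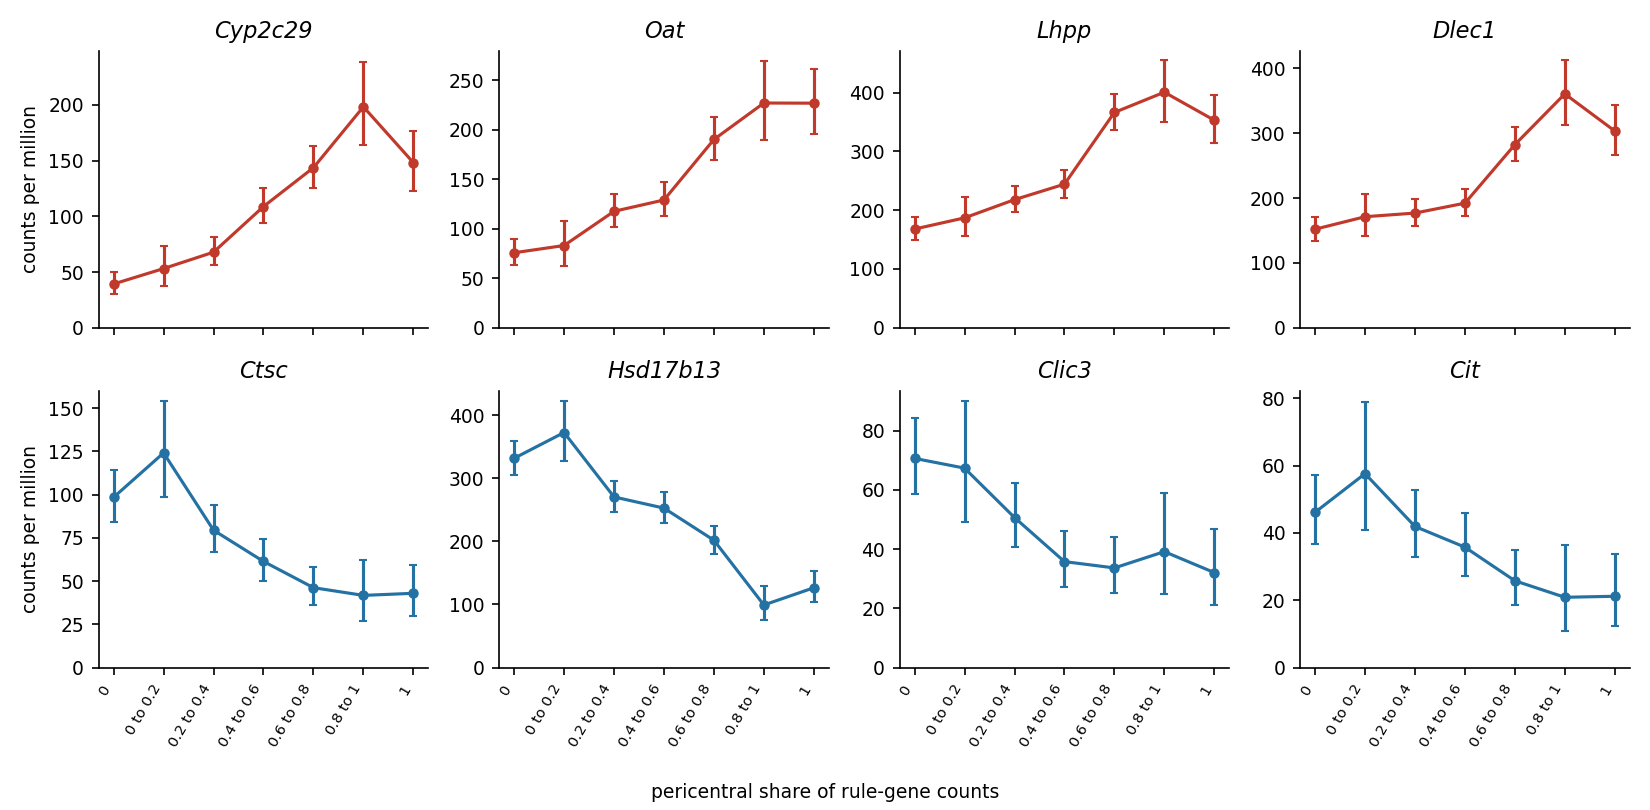
CPM (vertical axis, from 0) of 4 genes higher in pericentral nuclei (red) and 4 higher in periportal nuclei (blue) over ranges of the pericentral share of rule-gene counts (horizontal axis) at 72 h, with exact 95% Poisson intervals. Oat goes from 75.7 CPM at a share of 0 to 227 CPM at a share of 1, and Hsd17b13 from 332 to 126 CPM.

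Single genes stepped in the same direction, although the classes at the ends of the axis were also the ones that ranked these genes. Cyp2c29 was at 39.3 CPM in nuclei with a pericentral share of 0, at 67.8 and 108.7 CPM in the ranges of intermediate nuclei, at 198 CPM from 0.8 to below 1 and at the lower 148 CPM at a share of exactly 1. Ctsc was at 98.5 CPM at a share of 0, at the higher 124 CPM just above 0, at 79.4 and 61.4 CPM in the intermediate ranges and at 41.7 CPM from 0.8 to below 1. Only the values at intermediate shares are free of the ranking, and for both genes they stepped in the direction of the classes.

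For several of these genes the difference was larger in the other peaks of the gene than at the promoter. For Oat the peaks at the promoter gave a log2 ratio of 0.60 (0.26 to 0.96) and its other peaks 2.04 (1.70 to 2.40). For Pdk4 the values were 0.34 (-0.09 to 0.77) and 1.28 (0.95 to 1.62), for Sult2a8 0.15 (-0.41 to 0.71) and 1.34 (0.97 to 1.73), and for Gsta3 0.43 (0.18 to 0.70) and 1.1 (0.85 to 1.35), and in these 4 genes the intervals did not overlap. On the periportal side Cit gave -0.15 (-1.04 to 0.75) at its promoter and -1.39 (-1.93 to -0.87) elsewhere, with intervals that overlapped. Ctsc differed in both, by -1.41 (-1.87 to -0.97) at the promoter and -1.09 (-1.53 to -0.65) elsewhere. For the other genes of the ranking that could be split the 2 intervals overlapped. No tally over all genes is given, so these genes need not be typical. For Cps1, Ass1, Hsd17b13 and Aspg all counts lie in peaks that reach to within 1000 bp of a start site, so no such split could be made, and the single peak over Cps1 is 115013 bp long.

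The Ctsc promoter is printed because this gene, the farthest on the periportal side of its list, differed at the promoter as well as elsewhere. It is the RefSeq sequence of GRCm38.p6 on the plus strand from 250 bases before to 50 bases after the gene start, in lower case throughout, since none of the 7 words searched below occurs in it.
Ctsc promoter, chr7:88277835-88278134: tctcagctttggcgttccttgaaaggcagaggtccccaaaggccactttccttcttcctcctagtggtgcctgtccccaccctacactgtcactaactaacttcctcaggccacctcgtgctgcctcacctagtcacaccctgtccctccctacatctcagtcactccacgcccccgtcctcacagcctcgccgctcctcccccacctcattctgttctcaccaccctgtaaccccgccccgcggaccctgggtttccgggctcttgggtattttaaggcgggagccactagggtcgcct

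Distal peaks, those over 2000 bp from every transcription start site, were then compared one by one. Of 13001 with at least 100 counts in the 2 classes, 135 (1.04%) were at least 2-fold higher in pericentral and 76 (0.585%) in periportal nuclei. The pericentral ones lay in exons in 27.4%, in introns in 37.8% and between genes in 34.8% of cases, and the periportal ones in 15.8%, 55.3% and 28.9%, where all distal peaks tested gave 18.3%, 45.1% and 36.7%. Of the pericentral peaks 112 and of the periportal peaks 70 were the only one at their nearest gene. Lhpp was the nearest gene of 5 pericentral peaks, Cyp2c29 of 4, and Ahr, the dioxin receptor, and Esrrg, an orphan nuclear receptor, of 3 each. On the periportal side Ppargc1a, Chd7 and Utrn had 2 each. Peaks within 1000 bp of a start site passed 2-fold in 0.314% and 0.369% of 14348 cases, and among peaks with 100 to under 200 counts (median 146 for promoter and 130 for distal peaks) promoter peaks passed in 0.642% and 0.844% and distal peaks in 1.19% and 0.767%.

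The leading pericentral peak lies over an exon of Cyp2c29 at chr19:39320836-39323312. It held 106 counts in pericentral, 95 in intermediate and 10 in periportal nuclei, a log2 ratio of 3.10 (1.79 to 4.78). Scaled to depth it was at 17.7, 13.98 and 2.06 CPM. Another peak in an intron of the gene, chr19:39315856-39320292, held 267, 175 and 44 counts (2.30, 1.64 to 3.02). The last of these, chr19:39327956-39330927, held 200, 120 and 48 counts (1.76, 1.1 to 2.46). A wide peak lies over the end of Oat at chr7:132553315-132565504, with 762, 444 and 144 counts (2.10, 1.73 to 2.48). An intron of Aldh3a2, chr11:61241881-61244843, held 169, 106 and 28 counts (2.29, 1.46 to 3.22). The others among the first 8 were at Slco1b2 (1.52, 1.19 to 1.86), Sult2a8 (1.5, 1.08 to 1.94) and an intron of Slc16a10, an aromatic amino acid transporter (1.39, 1.01 to 1.79). In all of these the intermediate nuclei lay between the classes.

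On the periportal side an intron of Cit, chr5:115920925-115922797, held 18 counts in pericentral, 57 in intermediate and 91 in periportal nuclei (-2.64, -3.86 to -1.59). The peak at chr7:27134735-27138265, beyond the end of the rule gene Cyp2f2 and outside its counted window, held 37, 106 and 127 counts (-2.08, -2.92 to -1.32), and it lies beside a gene that chose the nuclei. An intron of Gldc, the decarboxylase that cleaves glycine, chr19:30164869-30168860, held 48, 106 and 109 counts (-1.49, -2.24 to -0.77). The remaining 5 of the first 8 were nearest to Xkr9, Eef2kmt, Lemd3, E330017A01Rik and Arpp21, with log2 ratios from -1.54 to -1.41, and the intermediate nuclei held more counts than the periportal ones in 4 of these 5 before scaling. In CPM the intermediate nuclei lay between the classes in all 8.

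The central 300 bases of the first 3 peaks on each side are printed to show the DNA behind the largest contrasts, from the GRCm38 plus strand, 5' to 3', in lower case with matches to the searched words in capitals. The peaks are 1873 to 12190 bp long, so a centre need not be the open part.
Cyp2c29 exon peak, chr19:39321924-39322223: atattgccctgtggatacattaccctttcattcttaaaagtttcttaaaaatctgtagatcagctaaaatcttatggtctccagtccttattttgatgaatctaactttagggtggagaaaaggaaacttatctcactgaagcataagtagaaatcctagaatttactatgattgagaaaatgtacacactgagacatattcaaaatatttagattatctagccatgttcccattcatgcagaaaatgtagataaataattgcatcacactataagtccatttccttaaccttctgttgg
Oat peak, chr7:132559260-132559559: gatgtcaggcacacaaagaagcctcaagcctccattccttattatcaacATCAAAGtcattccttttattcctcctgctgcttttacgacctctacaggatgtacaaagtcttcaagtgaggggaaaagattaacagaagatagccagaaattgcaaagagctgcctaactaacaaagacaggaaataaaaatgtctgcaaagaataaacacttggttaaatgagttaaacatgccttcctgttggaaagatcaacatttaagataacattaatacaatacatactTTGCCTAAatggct
Cyp2c29 intron peak, chr19:39317924-39318223: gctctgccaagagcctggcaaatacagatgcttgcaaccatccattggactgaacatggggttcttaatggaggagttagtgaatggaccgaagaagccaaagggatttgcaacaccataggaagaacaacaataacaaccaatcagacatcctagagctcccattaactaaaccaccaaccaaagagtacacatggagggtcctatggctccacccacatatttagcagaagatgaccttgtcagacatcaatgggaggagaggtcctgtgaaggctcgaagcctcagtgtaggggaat
Cit intron peak, chr5:115921711-115922010: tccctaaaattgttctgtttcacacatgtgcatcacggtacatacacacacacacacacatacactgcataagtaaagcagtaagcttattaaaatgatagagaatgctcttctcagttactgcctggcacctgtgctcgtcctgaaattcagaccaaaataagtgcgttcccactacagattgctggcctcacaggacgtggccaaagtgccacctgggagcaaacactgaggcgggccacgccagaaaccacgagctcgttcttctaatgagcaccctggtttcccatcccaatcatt
Cyp2f2 downstream peak, chr7:27136350-27136649: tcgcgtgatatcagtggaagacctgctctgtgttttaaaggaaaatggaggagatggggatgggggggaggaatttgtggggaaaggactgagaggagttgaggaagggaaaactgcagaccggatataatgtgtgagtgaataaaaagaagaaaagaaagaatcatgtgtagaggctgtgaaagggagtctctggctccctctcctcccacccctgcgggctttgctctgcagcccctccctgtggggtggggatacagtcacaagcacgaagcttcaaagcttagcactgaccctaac
Gldc intron peak, chr19:30166715-30167014: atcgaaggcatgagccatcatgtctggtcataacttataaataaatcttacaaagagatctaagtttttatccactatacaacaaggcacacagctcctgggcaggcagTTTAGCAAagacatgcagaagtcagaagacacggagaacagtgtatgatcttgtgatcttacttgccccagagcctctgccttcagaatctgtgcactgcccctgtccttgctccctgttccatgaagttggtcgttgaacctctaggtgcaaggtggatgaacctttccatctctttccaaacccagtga

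The words searched on both strands were CTTTGAT for TCF/LEF, CAAAGTNCA for HNF4A, TTGCNNAA for CEBP, TGTTTAC for FOXA and TGANTCA for AP-1, and longer words for HNF1 and the glucocorticoid receptor. The letters CAAAG are common to the HNF4A word and to the reverse strand of the TCF/LEF word, so the 2 can overlap. In the printed windows the Oat peak holds a TCF/LEF and a CEBP word and the Gldc peak a CEBP word. Over the central 300 bases the TCF/LEF word was in 6.67% of the 135 pericentral peaks, 2.63% of the 76 periportal peaks and 5.06% of all distal peaks tested. For AP-1 the shares were 17.0%, 10.5% and 10.7%, for FOXA 8.89%, 2.63% and 6.42%, for CEBP 18.5%, 18.4% and 15.4%, for HNF4A 2.22%, 2.63% and 3.52% and for the glucocorticoid receptor 2.22%, 0% and 0.661%. The HNF1 word was in none of the peaks past the fold and in 0.185% of all. In counts, the AP-1 word was in 23 pericentral and 8 periportal peaks and the TCF/LEF word in 9 and 2. Over whole peaks the TCF/LEF word occurred 0.20 times per 1000 bp in pericentral, 0.195 in periportal and 0.173 in all distal peaks, and the AP-1 word 0.343, 0.383 and 0.345 times. A match is a description of letters and shows no bound factor.

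**Figure D5:**
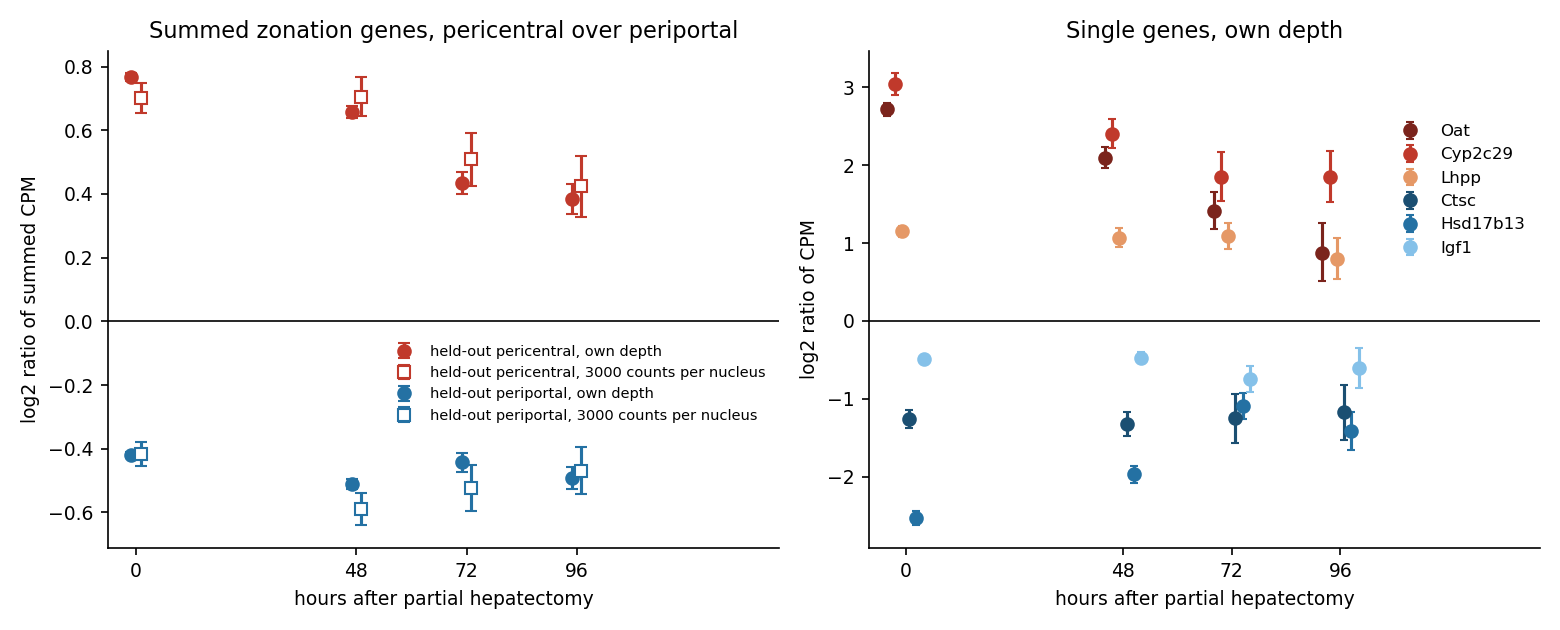
Log2 ratio of CPM, pericentral over periportal nuclei (vertical axis), in the libraries at 0, 48, 72 and 96 h after partial hepatectomy (horizontal axis, points shifted sideways for sight), for summed zonation genes outside the rule (left, filled circles at the depth of each nucleus, open squares at 3000 counts per nucleus) and for 6 genes (right); bars are 95% counting intervals. At 72 h the summed pericentral genes stand at 0.43, below 0.77 at 0 h, and the periportal genes stand at -0.44 beside -0.42 at 0 h.

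The same rule gave 795 pericentral and 1596 periportal nuclei at 0 h, 950 and 887 at 48 h, and 404 and 431 at 96 h. The libraries differ in depth and each has its own peaks, so each was also read at 3000 counts per nucleus, which left 285 pericentral and 364 periportal nuclei at 72 h. In the order 0, 48, 72 and 96 h the summed pericentral genes gave 0.77, 0.66, 0.43 and 0.38, and at equal depth 0.70, 0.71, 0.51 and 0.42. The value at 72 h was lower than at 0 and 48 h either way, with intervals that did not overlap (0.43 to 0.59 at 72 h at equal depth, 0.65 to 0.75 at 0 h). The summed periportal genes gave -0.42, -0.51, -0.44 and -0.49, and at equal depth -0.42, -0.59, -0.52 and -0.47, and the values did not follow the order of the pericentral ones. Of the pericentral genes 25 of 40 passed 1.5-fold at 0 h, where 1.95% of all genes did, 19 of 40 at 48 h (1.06%), 6 of 33 at 72 h (0.815%) and 7 of 28 at 96 h (1.35%). Of the periportal genes 15 of 34 passed at 0 h, where 2.52% of all genes did, 12 of 34 at 48 h (0.725%), 7 of 28 at 72 h (0.609%) and 7 of 24 at 96 h (0.84%). At 3000 counts per nucleus fewer genes could be tested and the order differed. In the order of the times 13 of 26, 13 of 24, 2 of 10 and 2 of 5 pericentral genes passed (1.82%, 3.04%, 2.02% and 3.55% of all genes), and 12 of 29, 8 of 19, 7 of 13 and 4 of 12 periportal genes (2.11%, 1.81%, 1.68% and 2.78%). Time, animal and library cannot be told apart here.

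In the order of the 4 times and at the depth of each nucleus, Oat gave 2.72, 2.09, 1.42 and 0.88. Cyp3a11, a P450 of drug oxidation, gave 1.79, 0.60, 0.37 and 0.43, and its value at 72 h turned to -0.14 with binarised counts. The Wnt target Lgr5 gave 1.52, 0.69, 0.36 and 0.58, Tbx3 1.1, 0.37, 0.30 and 0.44, and Sp5 1.61, 0.65 and 0.37 at 0, 48 and 72 h, with too few counts at 96 h. Lhpp gave 1.15, 1.07, 1.09 and 0.80, and Ctsc -1.26, -1.32, -1.25 and -1.17. Hsd17b13 gave -2.53, -1.97, -1.09 and -1.41, and albumin -1.15, -0.10, -0.27 and -0.35. Sult2a8 had a smaller ratio at 0 h (0.43) than at 48, 72 and 96 h (1.0, 0.98 and 1.01). At 3000 counts per nucleus Tbx3 gave 1.0, 0.59, 0.54 and 0.50, Lhpp 0.93, 1.13, 1.23 and 0.79, and Cyp3a11 1.86, 0.72, 0.45 and 0.65.

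Of the 95 genes past 1.5-fold on the pericentral side at 72 h, all had enough counts at 0 h and 81 had the same direction there, where 55.7% of the other genes had it. At 48 h 63 of 95 did (49.3% of the others), and at 96 h 25 of the 29 that could be tested (55.4%). Of the 71 on the periportal side 59 of 71, 59 of 70 and 29 of 33 had the same direction, against 44.3%, 50.7% and 44.6% of the others. Past the fold in the same direction were 22 of the 95 at 0 h, 26 at 48 h and 14 of 29 at 96 h (1.95%, 1.06% and 1.35% of all genes in those libraries), and on the periportal side 25 of 71, 20 of 70 and 12 of 33 (2.52%, 0.725% and 0.84%). Past it in the opposite direction were 2 of the 33 periportal genes at 96 h and none of the others. Across all genes the Pearson correlations of the log2 ratios with those at 72 h were 0.39, 0.32 and 0.31 for the 0, 48 and 96 h libraries (11622, 11646 and 6310 genes, which are not independent and share the rule). At 3000 counts per nucleus they were 0.51, 0.54 and 0.57 over the 1177, 1179 and 627 genes that could still be tested, in the reverse order.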

How the data were processed

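Hepatocyte nuclei of 4 scATAC-seq libraries were analysed. The authors deposited, per library, counts of transposase cut sites per peak and barcode, made with Cell Ranger ATAC on mm10 per the labels (version 1.1.0 per the file headers), with that library's own peaks; peak start and end coordinates are the other deposited values used. No doublet caller was run. Genes were GENCODE M21 (body plus 2000 bp upstream), and peaks on chromosomes 1 to 19 and X were used. Counts of the nuclei of a class were summed, scaled to counts in peaks outside the 11 rule genes (CPM), and compared as log2 ratios without a pseudocount. Genes needed 300 and distal peaks 100 summed counts. Levels have exact 95% Poisson and ratios 95% Clopper-Pearson intervals on counts divided by 2, covering counting error only, since cut sites are not independent molecules. Nuclei are not replicates, so no p-value is given. Scripts were tested on simulated data.

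Named were the rule genes, the 12 protein-coding genes per side with the ratio bound nearest 1 farthest out (outside 500 kb of a rule gene, and Acaa1b passed over for counts shared with Dlec1), the highest and lowest 2 members of each list and all past the fold, and 8 distal peaks per side; further list members were chosen after their values were seen. The members and lists were chosen with earlier results of these data known. A few genes that these rules name are not reported or drawn here, though counts and sums over lists hold them. Total counts were 5994741 in pericentral and 4856802 in periportal nuclei. Python 3.11.15, numpy 2.4.6, pandas 2.3.3 and scipy 1.17.1 were used. Alternatives are given in the closing section.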

Additional observations from a re-analysis of the deposited data

Results flagged for a closer look

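Over 223 named or listed genes and 623 pairs of the 72 h library with another library, 7 pairs in 5 genes had counting intervals on opposite sides of equal levels, and 5 pairs in 3 genes are given here. The difference itself was not tested, since each time has 1 library. Cyp2c70, a P450, had a log2 ratio of 0.29 at 72 h (interval 0.07 to 0.50), while the 0 h library gave -0.27 and the 96 h library -0.66, and at 3000 counts per nucleus the values were 0.45, -0.37 and -0.67. Fasn, the fatty acid synthase, had 0.17 (0.06 to 0.28) at 72 h and -0.30 at 0 h. Tcf7l2, a partner of beta-catenin, had 0.18 (0.03 to 0.33) at 72 h, while the 0 h and 48 h libraries gave -0.12 and -0.14. At 72 h all 3 were within 1.5-fold, and the signs were the same at 3000 counts per nucleus for each of the 5 pairs. At that depth the intervals stayed on opposite sides for Fasn alone, but its 72 h value turned to -0.06 with binarised counts and to -0.12 with binarised sums. For Cyp2c70 at 72 h the interval ran from -0.09 to 0.98, and for Tcf7l2 it ran from -0.25 to 0.21 at 0 h and from -0.45 to 0.27 at 48 h.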

How the results depend on the processing

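The medians of the held-out lists kept their direction under 15 other settings and 2 more chosen after seeing the data, and the summed ratios under the 15 of these that apply to them. No named gene past the fold changed sign in 420 recomputed values, of which 362 stayed past 1.5-fold. Of 103 listed genes whose interval lay on 1 side of equal levels, 17 changed sign under at least 1 setting, among them Cyp3a11 (-0.14 with binarised counts), Glud1 (-0.088) and Fasn (-0.06). The summed pericentral ratio ranged from 0.28 to 0.51 and the periportal one from -0.52 to -0.36. No paired analysis was possible because each time point has 1 library, and for the same reason no replicate could be left out. Depth limits the calls: with 4 rule counts as the minimum, single nuclei may be misplaced, and the counts of genes and peaks past the fold follow the count minimum.

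Stricter thresholds gave a summed periportal ratio of -0.49, 81 pericentral distal peaks, and shares of 19.98% and 26.3%. At least 8 rule counts gave -0.51, 62 pericentral genes, 85 and 31 distal peaks, and shares of 33.1% and 28.8%. At least 5000 counts per nucleus gave shares of 34.5% and 27.3%. Thinning to 3000 counts gave median ratios of 0.47 and -0.65, summed ratios of 0.51 and -0.52, 24 and 20 genes among 1190 tested, 3 and 1 distal peaks among 187, and a periportal share of 36.8%. In the other libraries it moved the summed pericentral ratio to 0.70 at 0 h and 0.71 at 48 h and the periportal one to -0.59 at 48 h. The rule without Cyp2e1 and Hal gave summed ratios of 0.30 and -0.36, a periportal median of -0.29, 48 and 39 genes, 79 and 27 distal peaks, and shares of 32.6% and 25.5%. Under it 14 of the 42 pericentral genes still tested and 18 of the 38 periportal ones remained past the fold, all in the same direction. Binarised counts in rule and sums gave summed ratios of 0.35 and -0.41, 3 and 4 genes among 883, 1 and 0 distal peaks among 103, and shares of 23.6% and 22.3%. Binarised sums with the rule on counts (added) gave 0.35 and -0.39, 13 and 13 genes among 4817, and 14 and 0 distal peaks among 2923. A pseudocount of 5 gave 89 and 45 distal peaks. Minimums of 150 counts per gene and 50 per peak gave 315 and 234 genes and 821 and 746 distal peaks, and no minimum gave 2166 and 2151 genes and 12059 and 13705 distal peaks. Promoter peaks alone gave a summed pericentral ratio of 0.28. The fewer genes and peaks tested account for part of the lower counts, and other causes were not tested. Leaving out nuclei whose barcode is in another library (added) gave 98 and 67 genes and summed ratios of 0.43 and -0.44.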
